A study of Mus musculus with 9 samples.

Results

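Bgn, Dcn, Lum, Sparc, Fbln1, Mgp, Igfbp7, Serping1 and Vim, 9 genes of the fibroblast matrix and its secreted proteins, were followed in RNA and chromatin libraries of mouse large intestinal cells. They were taken by symbol from the authors' deposited gene table, in which each of the 9 has 1 row of 17511. The RNA libraries labelled DKO (2) came from Cdx1-/-Cdx2f/f vill (+) mice and those labelled Wt (2) from Cdx1-/-Cdx2f/f vill (-) mice, so both groups carry the Cdx1 null and the floxed Cdx2 allele. Both received tamoxifen for 6 days. ATAC-seq, which marks chromatin open to a transposase, was run on 2 DKO and 2 Wt libraries of the same genotypes and treatment, and Cdx2 ChIP-seq on 1 library from untreated vill (-) cells. The vill tag is not spelled out in the labels, and no label gives an age or says that replicates came from separate mice. The p-values may therefore reflect technical spread alone. The cells were freed from fresh colon with EDTA and strained, an enrichment for epithelium and not a sort.

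Connective tissue fibroblasts of the gut wall secrete collagen fibrils and the small proteins that decorate, space and anchor them. Biglycan, decorin and lumican are small leucine-rich proteoglycans that sit on collagen fibrils. SPARC is a matricellular glycoprotein that binds collagen, and fibulin-1 joins elastic fibres and basement membranes. Matrix Gla protein, IGFBP7 and the C1 inhibitor encoded by Serping1 are secreted regulators, of calcification, growth factors and complement. Vimentin is the intermediate filament of mesenchymal cells, and endothelial cells and leukocytes also make it, so it marks a wider set of cells than the matrix genes do.

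Sequencing gave 21197446 and 20069555 estimated RNA reads in the DKO libraries, against 16403301 and 25494309 in Wt. Cdx2, the floxed gene, was not called in the authors' deposited table, at -0.27 on the log2 scale (adjusted p = 0.301, SE 0.21), which sums over whole genes and need not register a lost exon. Cdx1, null by label in both groups, stood at -1.06 there (adjusted p = 2.08e-05, SE 0.23). The groups are therefore called by their labels. The 9 genes had means of 36.4 to 769.5 normalized counts over the libraries in the authors' deposited table, and 9 epithelial markers 11299 to 159960.3. Normalized counts are counts scaled between libraries and not divided by gene length, so these values do not rank the genes. The authors' deposited table gives 1 mean over the libraries and 1 fold change per gene, and the error printed here is the standard error (SE) that comes with each fold change. Fewer cells of a type and less RNA per cell cannot be told apart in such bulk libraries.

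All 9 genes were lower in DKO than in Wt in the authors' deposited table at an adjusted p under 0.05, and 0 were higher. The background in that table was 18.3% of genes called lower and 18.5% called higher. The median log2 fold change was -4.45 over the 9 genes and -0.02 over all genes of the authors' deposited table. The 9 were chosen with earlier results of these data known, so their contrast with the background is a description and not a test. Among genes within 2-fold of each member's own mean count, 17.3% to 23.0% were called lower. Each of the 9 was also at least 2-fold lower, and 13.2% of all genes were both called lower and at least 2-fold lower.

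The 9 genes fell by unequal amounts, in what reads as a deep group of 5, a middle group of 3 and Vim, by eye and with no test. Bgn, Lum, Igfbp7, Sparc and Mgp lay between -5.17 and -4.45 in the authors' deposited table, a DKO level of 2.78% to 4.58% of Wt. Fbln1, Dcn and Serping1 lay between -2.37 and -2.27 there, at 19.3% to 20.7% of Wt. Vim lay highest, at -1.47 and 36.0% of Wt. No step between neighbours in this order exceeded 1.96 times the combined SE of the 2 genes, the widest being 2.08 between Mgp and Fbln1 with a combined SE of 1.14. For Sparc and Dcn, a pair named after the values were seen, the 95% intervals from the fold and SE of the authors' deposited table did not overlap. They ran from -5.07 to -3.93 for Sparc and from -3.00 to -1.69 for Dcn.

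**Figure D1:**
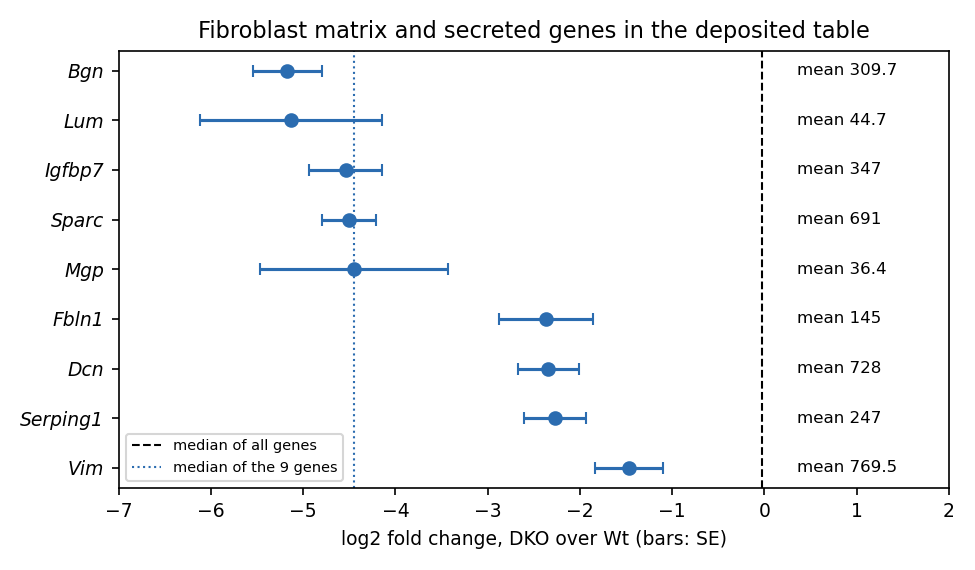
Log2 fold change, DKO over Wt, for the 9 genes, with the SE from the authors' deposited table as bars and each gene's mean normalized count at the right. All 9 points lie left of the median of all genes (-0.02, dashed), 5 of them at -4.45 or below.

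The 3 small leucine-rich proteoglycans all fell, Dcn by the least. Bgn (chromosome X, 73483601 to 73495936, GRCm38), which codes for biglycan, was the furthest down of the 9, at a log2 fold change of -5.17 (adjusted p = 4.97e-42, SE 0.37) in the authors' deposited table. Only 1.41% of genes in that table had a lower fold change. Lum (chromosome 10, 97565501 to 97572703), the gene of the keratan sulfate proteoglycan lumican, stood at -5.13 (adjusted p = 4.72e-07, SE 0.99) with 44.7 normalized counts on average in the authors' deposited table. Dcn (chromosome 10, 97479500 to 97518163), the gene of decorin and the nearest relative of Bgn among them, stood at -2.34 (adjusted p = 9.55e-12, SE 0.33) at a mean of 728 in the same authors' deposited table. The 95% intervals of Bgn (-5.90 to -4.43) and Dcn did not overlap, and that of Lum (-7.07 to -3.18) was wide. Dcn and Lum are genomic neighbours 47.3 kb apart.

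Of 13 further genes of this proteoglycan family or close to it, 10 were measured, and 5 were called lower and 0 higher by the authors' deposited table, with a median of -2.64. Prelp, which links basement membranes to connective tissue, stood at -4.01 (SE 0.50) and Ogn (osteoglycin) at -4.62 (SE 0.79) by the authors' deposited table. Podn, Optc and Aspn, named after their values were seen, were the other lower genes, at -3.50, -7.63 and -5.42 in the authors' deposited table. Of the 10, 8 had means under 50 normalized counts by the authors' deposited table, so most of this family was thinly measured.

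Sparc (chromosome 11, 55394159 to 55420080) was the member with the smallest p-value, at -4.50 on the log2 scale (adjusted p = 3.83e-52, SE 0.29), with 691 normalized counts on average in the authors' deposited table. Its closest relative Sparcl1 stood at -5.93 (SE 1.60) by the authors' deposited table, and tenascin-C, Tnc, at -3.44 (SE 1.53). In this list of SPARC family and other matricellular genes, 14 of 18 were measured, and 6 were called lower and 1 higher by the authors' deposited table, with a median of -0.69. The higher gene was Ccn1, an early response matricellular gene also made by epithelium, at 2.13 (SE 0.37) by the authors' deposited table.

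Fbln1 (chromosome 15, 85205949 to 85286294), the fibulin-1 gene, stood at -2.37 (adjusted p = 4.76e-06, SE 0.51) with 145 normalized counts on average in the authors' deposited table. Fibulins and elastic fibre genes were called lower in 14 of 20 and higher in 1 by the authors' deposited table, with a median of -3.29. The TGF-beta binding proteins Ltbp4 and Ltbp3 stood at -4.52 (SE 0.38) and -3.44 (SE 0.52) by the authors' deposited table. The higher gene was another fibulin, Fbln2, at 0.87 (adjusted p = 0.0418, SE 0.39) in the authors' deposited table, and that call did not pass an adjusted p under 0.01.

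Mgp (chromosome 6, 136872435 to 136875823), whose product needs vitamin K-dependent carboxylation to restrain calcification, stood at -4.45 (adjusted p = 1.09e-05, SE 1.02) in the authors' deposited table. Its mean of 36.4 normalized counts was the lowest of the 9, and its SE the widest. The enzymes and other substrates of that modification went both ways. Of 8 listed, 6 were measured, with 2 lower and 3 higher by the authors' deposited table and a median of 0.51. Gas6, a carboxylated ligand of TAM receptors, stood at 0.78 (SE 0.23) and the reductase Vkorc1l1 at 1.22 (SE 0.27), both called higher by the authors' deposited table. Bglap3, at 1.18 and named after its value was seen, has close copies among which reads could be split in the authors' deposited table. The reductase Vkorc1 stood at -2.13 (SE 0.34) and the carboxylase Ggcx at -0.97 (SE 0.40) by the authors' deposited table.

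Igfbp7 (chromosome 5, 77349240 to 77408045), a low-affinity binder of insulin-like growth factors that endothelium also makes, stood at -4.54 (adjusted p = 1.99e-28, SE 0.40) in the authors' deposited table, at a mean of 347 normalized counts. Its RefSeq span overlaps that of Polr2b, a subunit gene of RNA polymerase II, which stood at 0.76 (SE 0.21) by the authors' deposited table, and whether reads were counted by strand is unknown here. Of 11 other binding proteins, ligands and receptors of this system, 9 were measured, and 5 were called lower and 1 higher by the authors' deposited table, with a median of -1.55. Igfbp6 stood at -2.09 (SE 0.46) and Igfbp5 at -1.55 (SE 0.41) by the authors' deposited table. The other lower genes, named after their values were seen, were Igfbp3, Igfbp2 and Igf1, at -4.19, -5.19 and -4.35 in the authors' deposited table. Igfbp4 went the other way, at 1.35 (adjusted p = 9.49e-06, SE 0.29) with 1011 normalized counts on average in the authors' deposited table.

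Serping1 (chromosome 2, 84765360 to 84775444), the inhibitor of the complement proteases C1r and C1s, stood at -2.27 (adjusted p = 1.02e-10, SE 0.34) with 247 normalized counts on average in the authors' deposited table. The complement and tissue serpin list was split, with 6 of 19 measured genes lower and 5 higher by the authors' deposited table and a median of -0.03. C3 and Cfb, the central component and the alternative pathway factor that intestinal epithelium also makes, stood at 2.46 (SE 0.40) and 1.25 (SE 0.24) by the authors' deposited table. C2 and Cfi, named after their values were seen, were also called higher, at 0.90 and 3.71 in the authors' deposited table. On the lower side stood Serpinh1, the collagen chaperone, at -5.94 (SE 0.56) and C1qa, a macrophage product, at -2.40 (SE 0.33) by the authors' deposited table. C1s1, a target of the Serping1 product named after its value was seen, stood at -1.61 (SE 0.50) by the authors' deposited table. The C1r genes C1ra and C1rb, named likewise, were not called, at 0.15 (SE 0.44) and -0.03 (SE 0.74) there.

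Vim (chromosome 2, 13574311 to 13582826) fell least, at -1.47 on the log2 scale (adjusted p = 1.46e-04, SE 0.37), with 769.5 normalized counts on average in the authors' deposited table. Of 10 other intermediate filament genes outside epithelium, 6 were called lower and 0 higher by the authors' deposited table, with a median of -2.81. Desmin, Des, the muscle filament, stood at -7.67 (SE 1.01) by the authors' deposited table, while the lamin gene Lmnb2, used by most cells, stood at -0.79 (SE 0.21). Among regulators and partners of epithelial-mesenchymal transition, in which Vim is a marker, 6 of 14 measured genes were lower and 2 higher by the authors' deposited table, with a median of -0.92. Fibronectin, Fn1, stood at -3.00 (SE 0.53) and Tgfbi at -0.97 (SE 0.30) by the authors' deposited table, against the TGF-beta receptors Tgfbr2 at 2.06 (SE 0.22) and Tgfbr1 at 2.04 (SE 0.30).

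Genes that degrade matrix went both ways. Of 18 measured proteases and inhibitors, 5 were called lower and 5 higher by the authors' deposited table, with a median of 0.40. Mmp2, a stromal gelatinase, stood at -5.28 (SE 0.50) and the inhibitor Timp2 at -1.47 (SE 0.28) by the authors' deposited table. Mmp7, an epithelial matrilysin, stood at 6.49 (SE 0.42) and the membrane protease Mmp15 at 0.63 (SE 0.19) by the authors' deposited table. The remaining calls, named after their values were seen, were Timp3, Adamts2 and Mmp11 on the lower side, at -1.69, -1.93 and -3.24 in the authors' deposited table. The higher ones were Mmp14 at 0.82 (SE 0.23), Mmp9 at 4.16 (SE 0.66) and Mmp8 at 6.54 (SE 2.89) in the authors' deposited table. Mmp8 had a mean of only 13.4 normalized counts there.

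**Figure D2:**
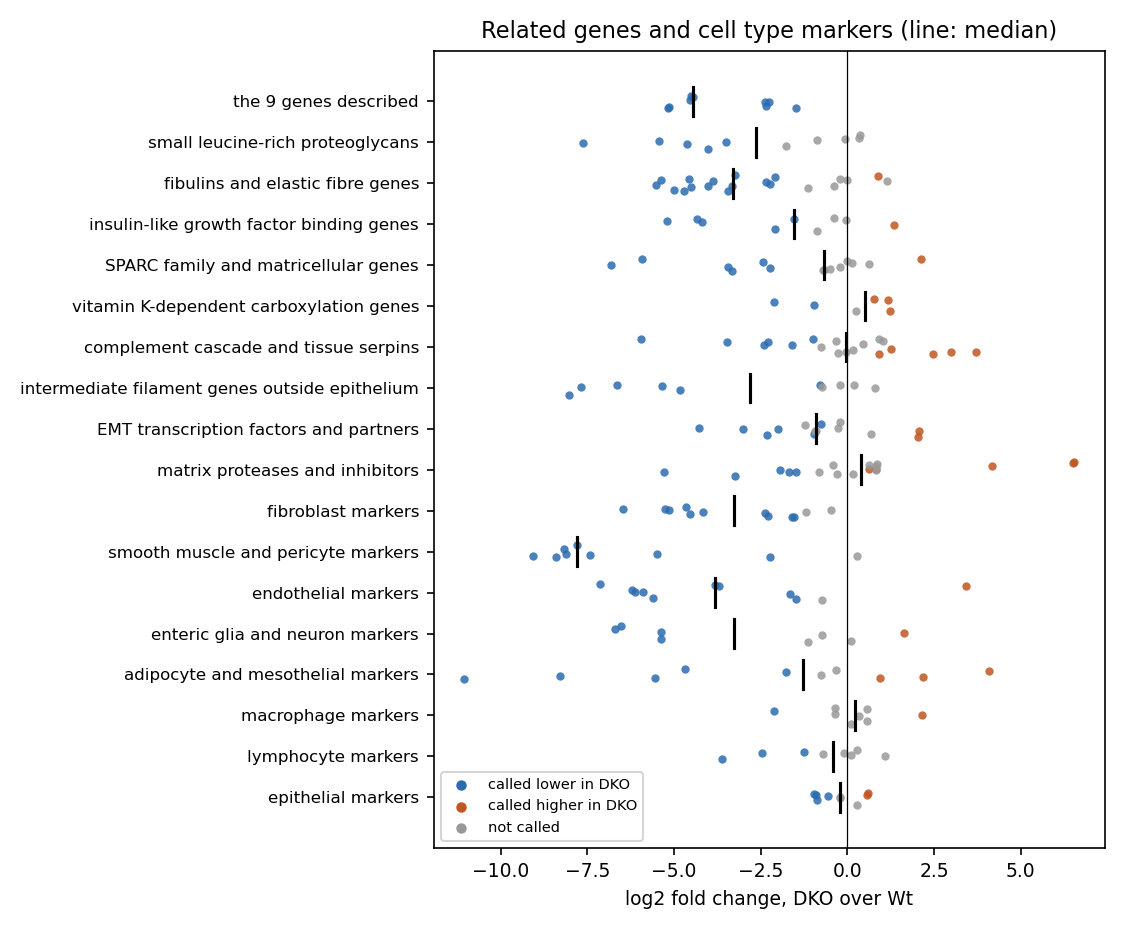
Log2 fold change, DKO over Wt, from the authors' deposited table for the 9 genes and for each list, 1 point per measured gene, with the median as a line. Points are blue where called lower, orange where called higher and grey where not called; the 9 genes are all blue, and the smooth muscle list lies furthest left with a median of -7.80.

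Markers of several other non-epithelial cell types were lower beside the 9 genes, so the fall was not confined to markers of fibroblasts. Fibroblast markers were called lower in 10 of 12 and higher in 0 by the authors' deposited table, with a median of -3.26, led by count by Col3a1 at -5.14 (SE 0.26) and Col1a2 at -4.53 (SE 0.29). Smooth muscle and pericyte markers were lower in 8 of 9, with a median of -7.80, including Tagln at -8.18 (SE 1.33) and Acta2 at -8.11 (SE 0.35) by the authors' deposited table. Endothelial markers were lower in 9 of 11 and higher in 1, with a median of -3.81, including Plvap at -5.88 (SE 0.40) and Vwf at -3.81 (SE 0.34), against the lymphatic gene Lyve1 at 3.41 (SE 0.38) by the authors' deposited table. Enteric glia and neuron markers were lower in 4 of 8 and higher in 1, with Uchl1 at -5.38 (SE 0.63), Elavl4 at -5.38 (SE 1.63) and Ret at 1.62 (SE 0.44) by the authors' deposited table. Sox10, at -6.69 (SE 2.95) in the authors' deposited table, was also called lower and was named after its value was seen. No marker level per library can be given, and the part of these cell types in the result for the 9 genes was not tested.

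Adipocyte and mesothelial markers were mixed, with 5 of 10 lower and 3 higher by the authors' deposited table. Lpl stood at -4.68 (SE 0.44) and Cfd at -11.05 (SE 3.09), against Fabp4 at 4.08 (SE 0.38) and Cidec at 0.94 (SE 0.34), in the authors' deposited table. Upk3b, Adipoq and Plin1 were the other lower genes and Msln the other higher one, named after their values of -1.77, -8.28, -5.54 and 2.17 in the authors' deposited table were seen. Macrophage markers, from cells that also make vimentin, were lower in 1 of 8 and higher in 1, with a median of 0.23, namely Lyz2 at -2.13 (SE 0.27) and Cd14 at 2.16 (SE 0.20) by the authors' deposited table. Lymphocyte markers were lower in 3 of 8 and higher in 0, with a median of -0.40, the antibody chain gene Jchain at -3.61 (SE 0.27), Cd79a at -1.25 (SE 0.57) and, named after its value was seen, Ms4a1 at -2.46 (SE 0.87) by the authors' deposited table. Epithelial markers stayed within -0.96 and 0.60 in the authors' deposited table, with 4 of 9 lower and 2 higher. Cldn7 and Krt20 stood at -0.56 (SE 0.20) and -0.92 (SE 0.26), against Cdh1 at 0.56 (SE 0.19) and Krt18 at 0.60 (SE 0.22), in the authors' deposited table. Vil1 and Elf3, at -0.87 and -0.96 in the authors' deposited table and named after their values were seen, were the other lower epithelial markers.

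Genes outside these lists had fold changes of the same size. Outside all of these lists, the 5 genes averaging 500 or more normalized counts whose fold change lay nearest to the median of the 9 were Zg16, Gal3st2c, Fcgbp, Sct and St3gal1, at -4.44, -4.41, -4.39, -4.52 and -4.31 in the authors' deposited table. Zg16 and Fcgbp code for secreted goblet cell products, at means of 44178 and 221806 normalized counts by the authors' deposited table. Likeness here rests on 1 comparison.

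The genes next to the 9 on the chromosome were mostly not called, as were most genes of the authors' deposited table. The nearest measured protein-coding gene on either side, a comparison added after the values of the 9 were seen, gave 16 genes that were not themselves among the 9. Of these, 1 was lower, 5 were higher and 10 were not called in the authors' deposited table, with a median log2 fold change of 0.06. The lower one was Atp2b1, 1342 kb from Lum, at -2.06 (SE 0.21) by the authors' deposited table. Both neighbours of Vim were higher, Trdmt1 at 1.95 (SE 0.46) and St8sia6 at 2.49 (SE 0.86), in the authors' deposited table. Dusp9 beside Bgn (1.87, SE 0.46), BC049715 beside Mgp (3.64, SE 0.69) and Atxn10 beside Fbln1 (0.83, SE 0.24) were the other higher neighbours in the authors' deposited table. Haus7, 24.6 kb from Bgn, stood at 0.11 (adjusted p = 0.799, SE 0.28) in the authors' deposited table.

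**Figure D3:**
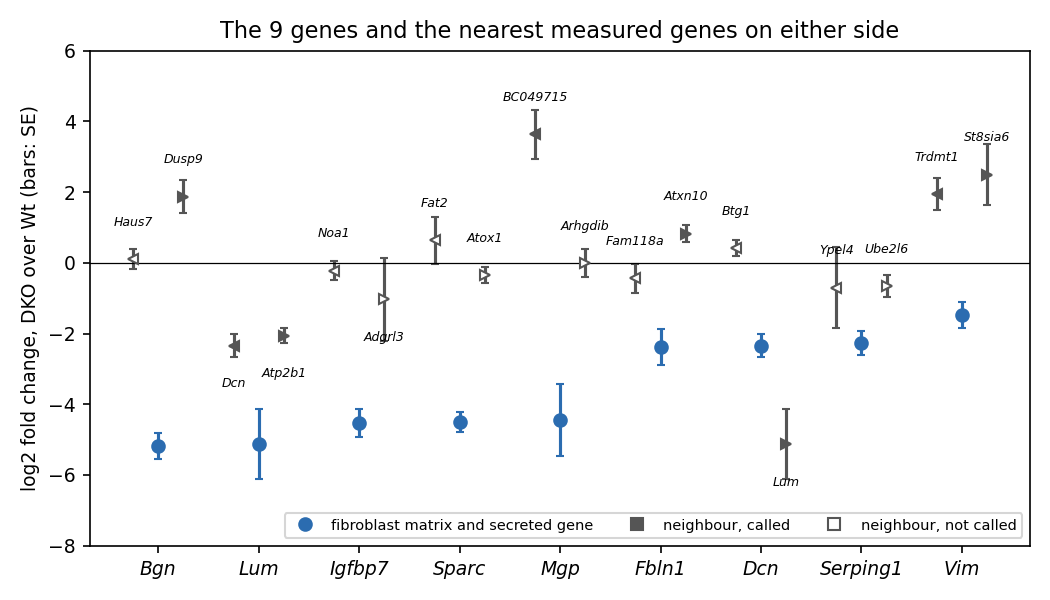
Log2 fold change, DKO over Wt, with SE from the authors' deposited table for the 9 genes (blue circles) and their nearest measured protein-coding neighbours at lower (left triangles) and higher (right triangles) coordinates, filled where called. Apart from Dcn and Lum, which neighbour each other, Atp2b1 at -2.06 is the only filled neighbour below 0.

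Open chromatin at the gene starts was called per library. There were 40101 and 23961 ATAC peaks in DKO replicates 1 and 2, against 48163 and 53943 in Wt replicates 1 and 2. The background was the 16310 genes of the authors' deposited table with a RefSeq span, here called annotated genes. A start was known for 12070 of them, and either end of the span was used for the rest. A peak lay within 1 kb of the start of 27.5% and 41.1% of annotated genes in DKO replicates 1 and 2, against 74.4% and 76.5% in Wt replicates 1 and 2. The difference between libraries in peaks called therefore moves with genotype over all genes, and its part in the results below was not tested. For 5 of the 9 genes the start was taken from the RefSeq promoter table of GRCm38.p6, and for Lum, Mgp, Dcn and Serping1 either end of the span was used.

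Of the 9 genes, 3 (Igfbp7, Fbln1 and Vim) had a peak at the start in both Wt libraries, as did 72.9% of all annotated genes. Igfbp7 and Vim had one in all 4 libraries, a state shared by 21.7% of genes. At Igfbp7 the highest fold enrichment over local background that the authors' peak caller gave was 4.19 and 3.79 in DKO replicates 1 and 2, against 5.71 and 5.35 in Wt replicates 1 and 2. The 4.19 came from a peak just upstream of the start, and the region shared by all 4 libraries reached 4.13 in DKO replicate 1. At Vim it was 3.82 and 4.38 in DKO replicates 1 and 2, against 4.92 and 5.22 in Wt replicates 1 and 2. Both Wt values lay above both DKO values at both genes, with 2 libraries a group and no test. The median over all peaks had the same order, at 3.90 and 3.77 in DKO replicates 1 and 2, against 4.95 and 4.88 in Wt replicates 1 and 2. A start that was called open in every library thus stood beside RNA at 4.30% of Wt for Igfbp7 and 36.0% for Vim, both from the folds of the authors' deposited table.

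Fbln1 had a start peak in both Wt libraries, at fold enrichments of 3.66 and 4.03, and in 0 DKO libraries, as did 30.0% of genes. Sparc had 1 in DKO replicate 2 alone (3.09), and Serping1 1 in Wt replicate 1 alone (3.28, at a -log10 q of 1.35). Bgn, Lum, Mgp and Dcn had none within 1 kb in any library, as did 20.3% of genes. No member had one in both DKO and neither Wt library, a state of 0.313% of genes. At a -log10 q of at least 5, Igfbp7 in Wt replicate 1 (5.28) and Vim in Wt replicate 2 (5.51) were the members that kept a start peak. That threshold kept 6297 and 4175 peaks of the whole lists in DKO replicates 1 and 2, against 23337 and 27810 in Wt replicates 1 and 2.

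**Figure D4:**
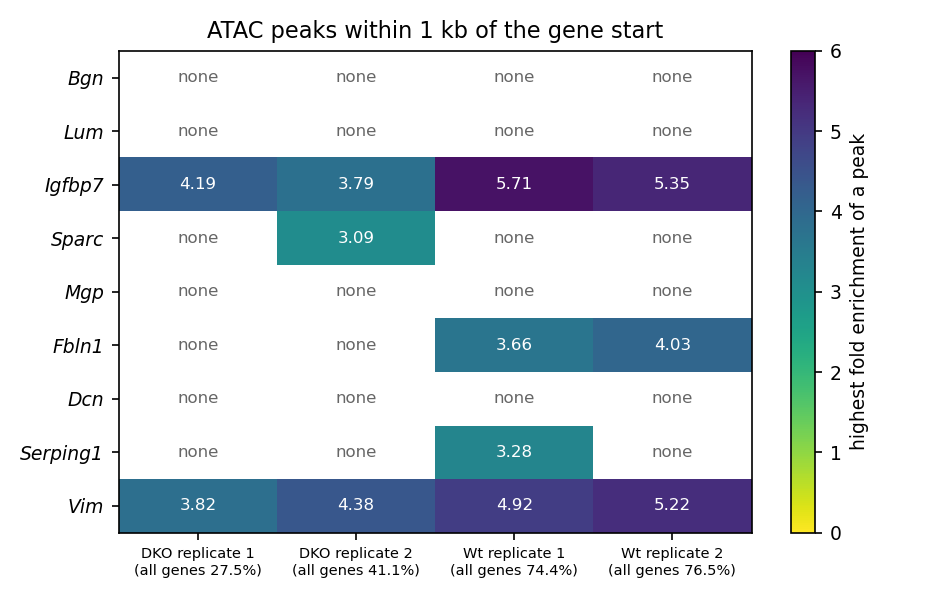
Highest fold enrichment of an ATAC peak within 1 kb of each gene start, by library, with the share of all annotated genes that have such a peak under each library. Igfbp7 and Vim are filled in all 4 libraries, Fbln1 in the Wt libraries alone, and Bgn, Lum, Mgp and Dcn in none.

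The starts that bear on this are shown as the 250 bases before the transcription start, 5′ to 3′ on the gene's strand, from RefSeq on GRCm38.p6. Vim (chr2:13574061-13574310, plus strand) and Igfbp7 (chr5:77408046-77408295, minus strand) were open in all 4 libraries, Fbln1 (chr15:85205699-85205948, plus strand, the first of its 2 listed starts) in Wt alone, and Bgn (chrX:73483351-73483600, plus strand) in none. Capitals mark, on either strand, the letters of the motifs searched that were found. The peak shared by all 4 libraries lay just past the printed bases at Vim (chromosome 2, 13574326 to 13574750) and at Igfbp7 (chromosome 5, 77407448 to 77408031). Vim had a second region, upstream, in both Wt libraries alone (13573624 to 13574062). Igfbp7 had a second region inside the printed bases (77408075 to 77408220), called in DKO replicate 1 and Wt replicate 1.
Vim: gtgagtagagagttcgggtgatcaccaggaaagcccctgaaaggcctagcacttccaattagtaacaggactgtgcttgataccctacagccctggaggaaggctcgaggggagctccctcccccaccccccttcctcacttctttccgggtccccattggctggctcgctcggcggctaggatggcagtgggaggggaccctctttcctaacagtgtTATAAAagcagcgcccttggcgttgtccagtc
Igfbp7: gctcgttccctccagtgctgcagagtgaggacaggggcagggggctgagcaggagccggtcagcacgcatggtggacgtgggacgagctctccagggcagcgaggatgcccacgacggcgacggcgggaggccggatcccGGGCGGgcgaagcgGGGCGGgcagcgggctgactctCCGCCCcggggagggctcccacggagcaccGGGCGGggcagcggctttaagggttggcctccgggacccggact
Fbln1: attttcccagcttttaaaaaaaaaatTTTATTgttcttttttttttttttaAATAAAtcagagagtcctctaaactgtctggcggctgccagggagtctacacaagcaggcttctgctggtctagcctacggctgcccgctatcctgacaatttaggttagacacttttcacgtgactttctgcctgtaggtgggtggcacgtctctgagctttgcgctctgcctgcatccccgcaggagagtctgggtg
Bgn: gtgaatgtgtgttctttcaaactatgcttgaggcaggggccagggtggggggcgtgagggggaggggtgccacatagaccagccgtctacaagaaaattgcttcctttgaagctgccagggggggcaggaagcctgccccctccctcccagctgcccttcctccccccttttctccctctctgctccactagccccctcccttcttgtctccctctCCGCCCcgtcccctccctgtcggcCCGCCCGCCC

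The motifs searched were TATAAA, the core-promoter box, GGGCGG, the GC box of Sp factors, CATAAA and AATAAA, which resemble sites of caudal-type factors such as Cdx2, TGANTCA, an AP-1 site, and GGAATG, a TEAD site. The last 2 had no match here, and 6.75% and 12.6% of windows hold them. Vim held 1 TATAAA, 32 bases before the start, letters that 12.4% of 32851 RefSeq promoter windows of this length hold. Igfbp7 held 4 matches to GGGCGG and Bgn 3, the last 2 of which overlap, where 32.7% of windows hold at least 1. The window of the first Fbln1 start held AATAAA once on each strand, where 18.1% of windows hold it, and none of the 4 held CATAAA, which 10.8% hold. The G and C content was 58.4% for Vim, 74.0% for Igfbp7, 46.4% for Fbln1 and 64.4% for Bgn. Both listed Fbln1 starts lie inside the Wt replicate 2 peak (85205936 to 85206184). The window before the second start (85206008) had a G and C content of 62.4% and 1 match to GGGCGG. The AATAAA letters lie outside that window. A match is a run of letters, and nothing about binding is drawn from it. The open Igfbp7 start and the Bgn start without a peak both lie in GC-rich sequence with GC boxes.

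Beyond the starts, 86 distinct ATAC regions, unions of overlapping peaks, lay within 50 kb of the 9 genes. Of these, 17 (19.8%) had a peak in neither DKO library and in both Wt libraries, against 23.8% of 106432 regions genome-wide, and 4 (4.65%) the reverse, against 4.98%. A further 5 (5.81%) were open in all 4 libraries, against 3.54% genome-wide. Sparc had 4 of 12 regions open in both Wt and neither DKO library, Vim 4 of 15, Serping1 4 of 14, Fbln1 2 of 13, Mgp 2 of 10, Bgn 1 of 7, and Igfbp7 0 of 12. Dcn and Lum lay in a stretch almost without peaks, with 2 regions near Dcn and 1 near Lum, each in a single library, where the median gene had 11.

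For 6 of the 9 genes the strongest region within 50 kb lay over another gene, and for Fbln1, Dcn and Lum it did not. The region of highest -log10 q near Sparc, 40.8 kb outside its span and over Atox1 (chromosome 11, 55460907 to 55461490), was called at fold enrichments of 8.82 and 9.68 in Wt and in 0 DKO libraries. Near Bgn it lay 24.2 kb away over Haus7, called at a -log10 q of 7.56 in DKO replicate 2 and not in replicate 1, against 18.9 and 22.4 in Wt. Near Vim it lay 29.6 kb away over Trdmt1, at a fold enrichment of 4.57 in DKO replicate 2 and with no peak in replicate 1, against 9.12 and 11.8 in Wt. Near Mgp it lay 43.9 kb away, at a fold enrichment of 3.71 in DKO replicate 2 and with no peak in replicate 1, against 9.61 and 9.44 in Wt. The strongest regions near Serping1 and Igfbp7 were called in all 4 libraries. Near Serping1 it lay 49.8 kb away over Zdhhc5, at 4.72 and 4.96 in DKO, against 10.2 and 8.98 in Wt. Near Igfbp7 it lay 38.5 kb away over Noa1 and Polr2b, at 3.91 and 4.51 in DKO, against 6.67 and 6.87 in Wt. Inside the genes themselves, Sparc held 1 region open in both Wt and neither DKO library (chromosome 11, 55415099 to 55415268), at fold enrichments of 4.87 and 5.09 in Wt. Fbln1 held 1 beyond its start (chromosome 15, 85231888 to 85232048), at 3.86 and 5.72 in Wt.

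**Figure D5:**
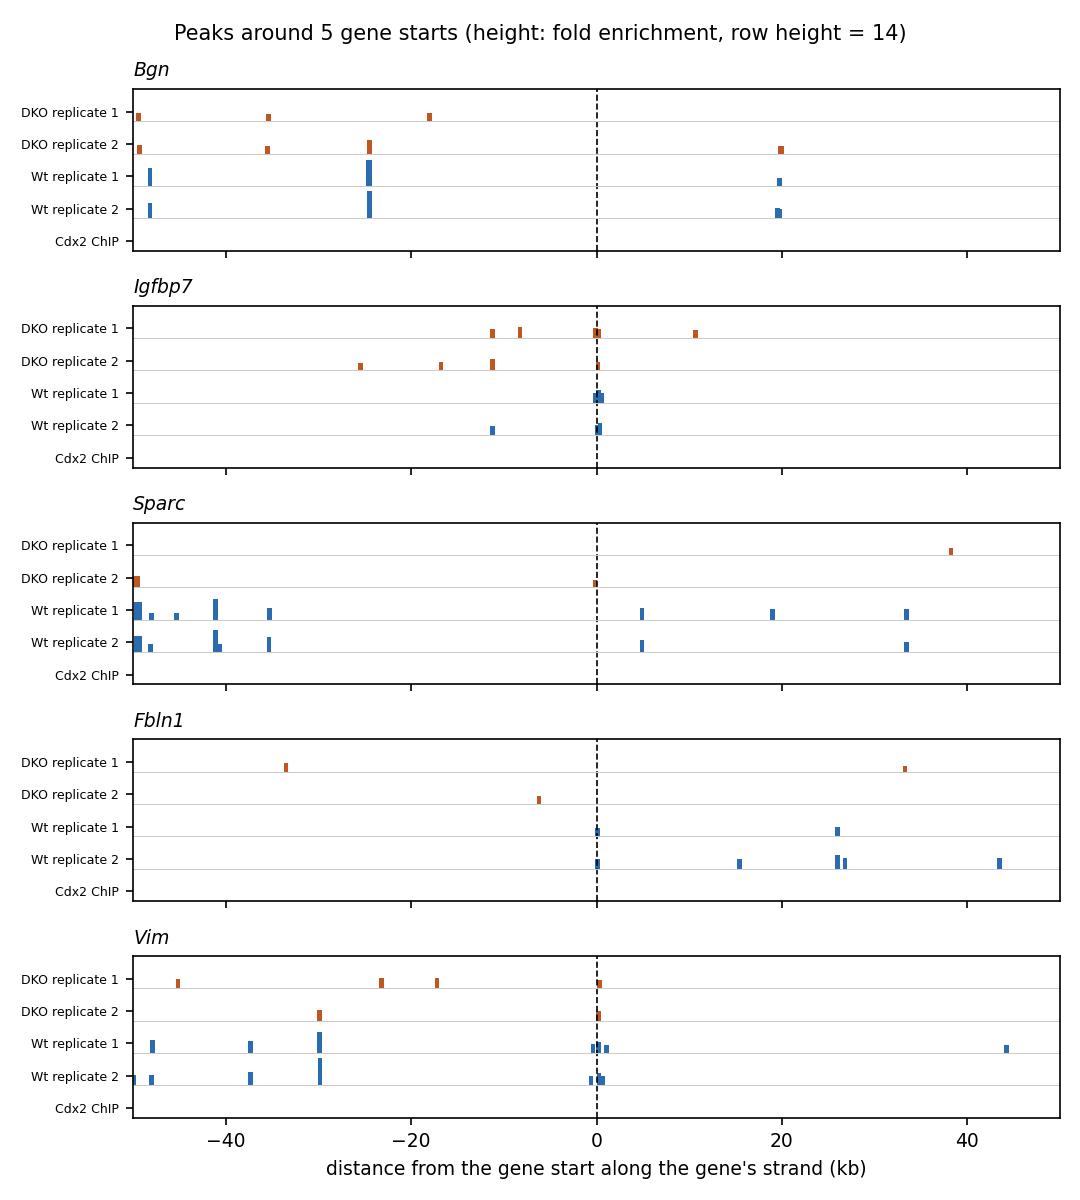
ATAC peaks of each library and Cdx2 ChIP peaks within 50 kb of the 5 gene starts with a known strand, by distance along the strand in kb, with bar height as fold enrichment (bars are drawn at least 0.5 kb wide). DKO rows are orange and Wt rows blue; the Vim and Igfbp7 starts have bars in all 4 libraries, and the Cdx2 rows are empty.

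Few Cdx2 peaks lay near the 9 genes. Of 5107 Cdx2 peaks on chromosomes, 0 lay within 1 kb of a member's start, where 3.33% of genes have one. Within 50 kb of the span, 1 of 9 genes had a peak, where 35.6% of genes do. That gene was Mgp, with a peak 38.5 kb away over Erp27 (chromosome 6, 136914326 to 136914578) at a fold enrichment of 6.30 and a -log10 q of 10.5, which overlapped an ATAC peak in 0 libraries. The nearest Cdx2 peaks to Sparc and Vim lay 52.7 and 56.2 kb away, at fold enrichments of 4.52 and 4.20. For Serping1, Fbln1, Igfbp7, Bgn, Dcn and Lum they lay 146, 193, 242, 255, 259 and 345 kb away, Dcn and Lum sharing 1 peak. None of the 86 ATAC regions overlapped a Cdx2 peak. The share that did so among all 106432 regions was not computed. That 0 is therefore not read as a result about the 9 genes. The ChIP list is 1 library without a replicate, from untreated cells, so it says nothing of how binding varies.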

How the data were processed

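For RNA, the authors deposited an estimated count and a TPM for each Ensembl transcript of each library, per the file headers. Salmon 1.3.0 is named in the submitters' processing notes. These files were used for depth and a check that replicates differed (chi-square per degree of freedom 50.4 in DKO and 33.0 in Wt). The deposited gene table held, per the file headers, a mean normalized count (a signal scaled between libraries), a log2 fold change with SE, and p-values. DESeq2 is named in the processing notes. Recomputed over all genes, Benjamini-Hochberg values matched the deposited ones. Fold over SE returned the deposited p within 0.01 in log10 for only 10.0% of genes, so the 95% intervals built from them are approximate. Direction rests on the file's name: of features with a mean of at least 10000, 6 transcripts were 16-fold higher and 14 lower in DKO, against 5 and 11 genes in the deposited table.

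Peak files gave a fold enrichment ratio, -log10 p and q and a score per peak, per library, from the authors (MACS2 in the notes, builds mm10 and GRCm38). Other peak settings, and strand use in counting, are not given in these sources. Genes were placed by RefSeq of GRCm38.p6.

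The edgeR fit planned for the members in each library could not be made, for want of a map from transcripts to genes. Calls are therefore the authors', at an adjusted p under 0.05, with alternatives recomputed in Python 3.11.15 (numpy 2.4.6, pandas 2.3.3, scipy 1.17.1) and tested on simulated data. No set test was run. Members and lists were chosen with earlier results of these data known. By rule, the genes named are the 9, the 2 called genes of highest mean in each list and direction, and the 5 nearest in fold change. Others are said to be named after their values were seen, or are chromosome neighbours. Some genes counted in the lists are not reported here by name.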

Additional observations from a re-analysis of the deposited data

How the results depend on the processing

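The 9 genes stayed lower under an adjusted p of 0.01, the Benjamini-Yekutieli adjustment, a 2-fold minimum and fold over SE as the statistic. Bonferroni left 8 (Vim reached 0.360), and a mean of at least 50 normalized counts left out Lum and Mgp, with the other 7 called. Bonferroni left 2 lower proteoglycans, 6 fibulin, 3 growth factor binding, 2 matricellular, 1 carboxylation, 2 complement, 3 filament, 1 transition and 2 protease genes, and 0 higher fibulin, 0 carboxylation, 3 complement and 2 protease genes. A mean of at least 50 took genes out of the lists before counting. Of those kept, 2 of 2 proteoglycans, 7 of 9 fibulin and 3 of 6 growth factor binding genes were lower. So were 2 of 5 transition and 3 of 8 protease genes. At an adjusted p of 0.01 and with Benjamini-Yekutieli there were 1 lower carboxylation, 3 higher complement and 0 higher fibulin genes, and 2 lower transition genes with Benjamini-Yekutieli. Fold over SE gave 0 higher fibulin and 2 lower transition genes. A 2-fold minimum gave 1 lower carboxylation, 0 higher fibulin and 3 higher protease genes. The causes were not tested. Across the alternatives, a count was taken as unmoved where it stayed near the main one, and a single gene where it kept its call. By that rule 119 values of the main comparisons did not move and 37 did. Of marker lists and single genes, 133 did not move, 14 moved and 1 (Vim) lost its call. An unmoved count need not be equal. The members at 8 under Bonferroni, and lower fibulin genes at 11 with fold over SE against 14, were taken as unmoved. Bonferroni left 5 lower fibroblast, 1 enteric, 3 adipocyte or mesothelial, 1 lymphocyte and 1 epithelial marker, and a 2-fold minimum left 0 lower and 0 higher epithelial markers.

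At a -log10 q of at least 5, 0 gene starts were open in all 4 ATAC libraries, 0 in both Wt and neither DKO library, and 7 in none. Igfbp7 and Vim each kept a peak in 1 Wt library. A 5 kb window left 2 starts with no peak. Leaving out 1 ATAC library gave 1 to 2 starts open in every Wt library kept and no DKO library (2, with Serping1, without Wt replicate 2). The reverse state held for 0 to 1 (1, Sparc, without DKO replicate 1). Within 100 kb, 3 genes had a Cdx2 peak. No paired analysis was possible because the gene table has no values per library and peak calls came from no test. For the same reason the planned leave-one-out, block, unfiltered and DESeq2 fits of the RNA libraries were not run.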
